A study of Mus musculus with 12 samples.

Results

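The Cyp2a and Cyp2b genes of the mouse encode liver cytochrome P450 enzymes and lie in 1 cluster on chromosome 7. They were taken by name: Cyp2a4, Cyp2a5, Cyp2a12, Cyp2a22, Cyp2b9, Cyp2b10 and Cyp2b13, 7 genes, of which 5 had a named probe set among the 21212 of the array. Cyp2a4 and Cyp2a5 were not analysed here. RNA came from the liver of 12 mice, 1 Affymetrix array per mouse. The groups were 3 KK males, 3 C57BL/6J males, 3 KK females and 3 C57BL/6J females. KK mice are an inbred line that tends to obesity and insulin resistance, named KK/HIJ in the strain label and KK/J in another label of the same mice, and C57BL/6J is a common laboratory strain. All mice ate chow, were 8 weeks old, had spent 3 days alone in a cage and 4 hours without food, and had their livers flushed with PBS after cervical dislocation, and the large lobe was used.

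P450 enzymes of these families sit in the endoplasmic reticulum, take electrons from the P450 reductase Por and oxidise steroids, drugs and other foreign compounds. Cyp2b10 is the classic target of the nuclear receptor CAR (Nr1i3), the sensor through which phenobarbital acts on the liver. Cyp2b9 and Cyp2b13 are known as female-biased liver genes, and sex bias in mouse liver depends largely on the pattern of growth hormone release, which is pulsed in males and more continuous in females.

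The 5 measured genes fell into 3 patterns. Cyp2b9, Cyp2b13 and Cyp2a22 were far lower in males than in females of C57BL/6J, and of these Cyp2b9 was also far lower in males of KK. Cyp2b10 was high in every mouse and higher in KK males than in C57BL/6J males, and Cyp2a12 was nearly level. Cyp2b13 and Cyp2a22 were much lower in KK females than in C57BL/6J females, whereas Cyp2b9 in KK females was lower on average by an amount that did not pass the test. By SD over the 12 arrays, Cyp2b9 ranked 4, Cyp2b13 ranked 8 and Cyp2a22 ranked 26 among all 21212 probe sets, while Cyp2b10 ranked 560 and Cyp2a12 ranked 6931.

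The promoters are shown first, and those of Cyp2b9 and Cyp2b13 are near-identical in the C57BL/6J genome. Whether promoter sequence bears on any difference in expression was not tested. Each promoter is the 250 bases before the start listed by RefSeq in build GRCm38.p6. That build is the C57BL/6J genome, and KK sequence was not used here. The strand is plus except for Cyp2a22. Capitals mark matches to TTGCNNAA, a C/EBP-type site, or to TATAAA, the TATA box. The windows are chr7:26173159-26173408 for Cyp2b9, chr7:26061245-26061494 for Cyp2b13, chr7:25897408-25897657 for Cyp2b10, chr7:26939387-26939636 for Cyp2a22 and chr7:27028840-27029089 for Cyp2a12.
Cyp2b9: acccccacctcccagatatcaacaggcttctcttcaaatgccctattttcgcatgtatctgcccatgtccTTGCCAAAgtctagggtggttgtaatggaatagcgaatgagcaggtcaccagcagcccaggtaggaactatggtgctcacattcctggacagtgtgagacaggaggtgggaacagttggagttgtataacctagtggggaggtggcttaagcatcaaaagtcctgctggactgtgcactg
Cyp2b13: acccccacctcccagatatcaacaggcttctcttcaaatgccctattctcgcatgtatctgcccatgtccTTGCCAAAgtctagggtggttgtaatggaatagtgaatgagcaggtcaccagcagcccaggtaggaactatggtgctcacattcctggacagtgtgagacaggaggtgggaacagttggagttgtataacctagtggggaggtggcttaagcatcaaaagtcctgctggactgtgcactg
Cyp2b10: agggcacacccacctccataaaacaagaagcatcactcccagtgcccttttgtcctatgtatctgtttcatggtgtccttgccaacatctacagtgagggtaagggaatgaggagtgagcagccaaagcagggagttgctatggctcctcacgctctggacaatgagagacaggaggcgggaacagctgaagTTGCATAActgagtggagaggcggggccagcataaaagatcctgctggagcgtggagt
Cyp2a22: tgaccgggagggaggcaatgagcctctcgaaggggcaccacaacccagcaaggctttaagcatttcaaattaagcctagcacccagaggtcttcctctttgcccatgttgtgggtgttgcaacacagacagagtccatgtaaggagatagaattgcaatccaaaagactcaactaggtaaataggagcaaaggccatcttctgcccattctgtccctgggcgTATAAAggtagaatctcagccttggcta
Cyp2a12: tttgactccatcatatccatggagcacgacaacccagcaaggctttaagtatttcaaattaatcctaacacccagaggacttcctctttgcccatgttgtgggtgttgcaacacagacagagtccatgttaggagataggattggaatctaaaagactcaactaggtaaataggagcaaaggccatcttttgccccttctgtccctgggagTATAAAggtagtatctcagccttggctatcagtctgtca

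The Cyp2b9 and Cyp2b13 windows were identical at 248 of 250 bases. They differed at T48C and C104T, with the Cyp2b9 base first, positions counted from 1 at the 5′ end of the window, and the Cyp2b13 base last. The Cyp2b9 and Cyp2b10 windows were 70.5% identical, and those of Cyp2a12 and Cyp2a22 were 88.8% identical. Starts listed by RefSeq need not be the 5′ ends of the annotated genes. The listed start lay inside the gene, 107 bases from its 5′ end for Cyp2b13, 59 for Cyp2b9 and 27 for Cyp2a22. As many bases at the right end of each of these windows thus lie within the annotated gene. Positions with a minus sign below count from the listed start.

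TTGCNNAA, searched on both strands, was found in Cyp2b9 and Cyp2b13 as TTGCCAAA with its first base at -180. It was found as TTGCATAA in Cyp2b10 at -58, in Cyp2a4 at -70 and in Cyp2a5 at -71. Of 32851 promoters of the same length, 9.56% hold it. At the place of the Cyp2b10 match the Cyp2b9 window has the difference T195C, and the Cyp2b9 letters are no match. TATAAA was found in Cyp2a22 at -28, Cyp2a12 at -39, Cyp2a4 at -28 and Cyp2a5 at -29, and 12.4% of all promoters hold it. TTCNNNGAA, the palindrome bound by STAT5 and BCL6, had no match in any of the 7 genes' windows, against 7.02% of all promoters. CAAAGTCC, an HNF4-type site, was found in Cyp2a4 and Cyp2a5 and is held by 1.2% of all promoters. No match overlapped another.

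Values below are log2 expression, 1 per mouse, so a difference of 1 is a doubling. Levels of different probe sets are not on a common scale, and differences are given for 1 gene at a time. Adjusted p-values are from limma with Benjamini-Hochberg adjustment over all probe sets, SE is that of the fit, and a gene was called at an adjusted p under 0.05. Because Cyp2b9, Cyp2b13 and Cyp2b10, and likewise the Cyp2a genes, are close copies, signal from another copy cannot be told from a gene's own, and each value is uncertain as to the gene. Probe sequences and KK sequence were not available. A strain difference in RNA therefore cannot be told from one in how well the probes match, and strain folds are those of signal. Whole liver was measured, so fewer cells of a type and less RNA per cell cannot be told apart.

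The labels fitted the sex genes. Xist read 4.21 to 4.70 in the 6 males and 10.29 to 10.95 in the 6 females. The 3 Y-linked genes read 5.87 to 8.30 in males and 3.79 to 4.66 in females. The range of 3.79 to 4.66 was taken as that of absent transcripts on these arrays, though Xist in males reached slightly higher. The array medians were 5.90 to 6.03, with interquartile ranges of 2.64 to 2.97. KK female 3 stood apart from the other KK females in sex-biased genes, as described further on, and results resting on that mouse are given with and without it. The hepatocyte markers Alb, Ttr, Apoa1, Cps1, Serpina1c, Fgb, Tat and Asgr1 were all measured.

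Among the 5 measured genes, Cyp2a22, Cyp2b13 and Cyp2a12 fell in KK females against C57BL/6J females, and 0 rose. That is 3 calls, where 6.5% of all probe sets were called, 3.18% higher and 3.31% lower. In KK males Cyp2b10 rose against C57BL/6J males, and 0 fell, where 5.15% were called, 2.08% higher and 3.06% lower. Over both sexes the same 3 genes as in females fell in KK, where 11.7% were called, 5.42% higher and 6.31% lower.

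Between males and females of KK, Cyp2b9 and Cyp2a22 fell in males, where 2.17% of probe sets were called, 0.698% higher and 1.47% lower. In C57BL/6J males Cyp2b9, Cyp2b13 and Cyp2a22 fell against females, where 1.03% were called, 0.358% higher and 0.674% lower. The interaction, which is the male strain difference less the female one, was called for Cyp2b13 and Cyp2a22, where 0.141% were called, 0.066% above zero and 0.0754% below.

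Groups did not overlap for 2 of the 5 genes between the strains in males (21.7% of all probe sets) and for 4 in females (20.6%). Between the sexes they did not overlap for 3 in KK (18.6%) and for 4 in C57BL/6J (13.1%). With both sexes pooled, the strains overlapped for all 5 genes, and 5.98% of probe sets did not overlap.

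Cyp2b9, a female-biased steroid hydroxylase, read 5.41, 5.32 and 5.09 in KK males, 5.89, 6.33 and 5.19 in C57BL/6J males, 11.49, 11.22 and 8.95 in KK females, and 12.31, 12.30 and 12.11 in C57BL/6J females. Every female was above every male, and KK female 3 was the only female below 11. Males were lower than females by -5.28 in KK (SE 0.51, adjusted p 0.000211; -6.08 without KK female 3) and by -6.44 in C57BL/6J (SE 0.51, adjusted p 3.23e-05), folds of 38.7 and 86.7 with n = 3 mice per group.

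The sex difference of Cyp2b9 was the 3rd largest of all probe sets in either strain. It did not differ detectably between the strains, since the interaction was 1.16 (SE 0.72, 95% interval -0.41 to 2.73, adjusted p 0.851), and 0.36 without KK female 3 (adjusted p 0.941).

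**Figure D1:**
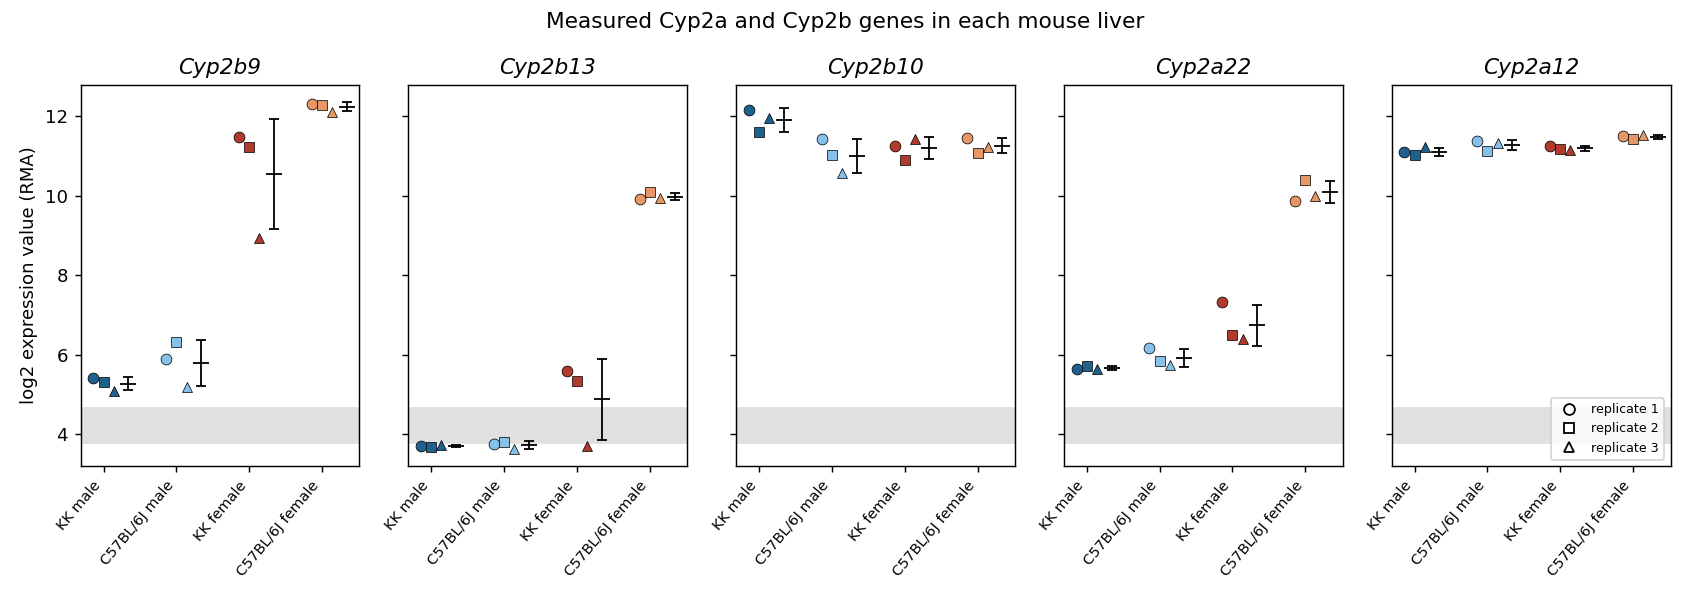
Log2 expression of the 5 measured genes, 1 point per mouse with a shape for each replicate number, in KK males, C57BL/6J males, KK females and C57BL/6J females; bars are group means with SD, and the grey band is the range of the Y-linked genes in female arrays (3.79 to 4.66). Cyp2b9, Cyp2b13 and Cyp2a22 are highest in C57BL/6J females with KK females below them, while Cyp2b10 and Cyp2a12 are above 10 in every mouse.

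The strain difference of Cyp2b9 in females was -1.69 (KK minus C57BL/6J, SE 0.51, 95% interval -2.80 to -0.58, adjusted p 0.0774), and in males -0.53 (SE 0.51, adjusted p 0.674). All 3 KK females lay below all 3 C57BL/6J females, while the males overlapped. Over both sexes it was -1.11 (adjusted p 0.0712). Without KK female 3 the difference over both sexes was -0.71 (adjusted p 0.0205) and passed, and that in females was -0.89 (adjusted p 0.0738).

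Cyp2b13, a close relative of Cyp2b9 in sequence and sex bias, read 3.70, 3.69 and 3.74 in KK males, 3.75, 3.82 and 3.64 in C57BL/6J males, 5.59, 5.35 and 3.71 in KK females, and 9.93, 10.09 and 9.94 in C57BL/6J females. All 6 males, and KK female 3 with them, were within or below the range of absent transcripts, the other KK females were above it, and the C57BL/6J females stood far above all. KK females averaged 4.88 ± 1.02 and C57BL/6J females 9.99 ± 0.09 (SD, n = 3 each).

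In females the strain difference of Cyp2b13 was -5.11 (SE 0.35, 95% interval -5.86 to -4.35, adjusted p 2.92e-06). With values below 4.66, the top of the range taken for absent transcripts, set to it, the signal was at least 27.6-fold lower in KK. This bound holds only for that floor, and absent Xist read up to 4.70 in males. Without KK female 3, the one KK female at that level, the difference was -4.52 (adjusted p 7.78e-10). In males it was -0.03 (adjusted p 0.981), at a level where a difference could not be seen. In C57BL/6J the sex difference was -6.25 (adjusted p 9.55e-07), and since the males were not above absent transcripts, males were at least 40.2-fold lower by the same bound. In KK the sex difference was -1.17 (adjusted p 0.121), with KK female 3 inside the male range. Without KK female 3 it was -1.76 (adjusted p 2.62e-06) and passed.

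The interaction was 5.08 for Cyp2b13 (SE 0.49, adjusted p 0.000912), and 4.49 without KK female 3 (adjusted p 2.04e-08). With both male groups at the level of absent transcripts, the male strain difference was not measurable, and the value rests on the female difference alone. Within each mouse, the Cyp2b13 value minus the Cyp2b9 value lay between -5.90 and -5.24 in KK females and between -2.38 and -2.17 in C57BL/6J females. The strains differed by -3.42 in this measure, which does not compare the levels of the genes, and the groups did not overlap (exact two-sided permutation test, p = 0.1). No smaller p is possible with 3 mice against 3, so this test could not pass 0.05. The value of -5.24 is that of KK female 3, whose Cyp2b13 was not above absent transcripts, so it sets only a bound. The measure was chosen after the values were seen.

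Cyp2a22 read 5.65, 5.73 and 5.65 in KK males, 6.18, 5.85 and 5.75 in C57BL/6J males, 7.34, 6.50 and 6.41 in KK females, and 9.87, 10.41 and 9.99 in C57BL/6J females. The KK females lay between the males and the C57BL/6J females and overlapped neither. In females the strain difference was -3.34 (SE 0.22, adjusted p 2.11e-06), a 10.1-fold lower signal in KK. In males it was -0.25 (adjusted p 0.625), although the 3 KK males lay below the 3 C57BL/6J males. Without KK female 3 the female difference was -3.17 (adjusted p 1.4e-05).

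Males were lower than females in Cyp2a22 by -4.17 in C57BL/6J (17.9-fold, adjusted p 5.18e-07) and by -1.07 in KK (2.11-fold, adjusted p 0.026). The KK call was lost without any 1 of the KK males, at adjusted p 0.0912, 0.0852 and 0.0573 without KK male 1, 2 and 3. The interaction was 3.09 (SE 0.31, adjusted p 0.000976), the 10th largest of all probe sets.

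Cyp2b10, the CAR target, read 12.17, 11.60 and 11.96 in KK males, 11.43, 11.02 and 10.57 in C57BL/6J males, 11.26, 10.90 and 11.44 in KK females, and 11.47, 11.09 and 11.23 in C57BL/6J females. The KK males were above every other mouse, and the other 3 groups overlapped. KK males exceeded C57BL/6J males by 0.91 (SE 0.21, 1.87-fold, adjusted p 0.0281). The call was lost without KK male 1 (adjusted p 0.123), KK male 3 (0.0712), C57BL/6J male 2 (0.0792) or C57BL/6J male 3 (0.1075).

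In females the strain difference of Cyp2b10 was -0.06 (SE 0.21, adjusted p 0.953), and the interaction was 0.97 (SE 0.30, adjusted p 0.545), so a difference between the sexes was not established. Males minus females gave 0.71 in KK (adjusted p 0.123), without overlap, and -0.26 in C57BL/6J (adjusted p 0.934).

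Cyp2a12, a testosterone hydroxylase, read 11.11, 11.02 and 11.22 in KK males, 11.38, 11.14 and 11.34 in C57BL/6J males, 11.26, 11.18 and 11.15 in KK females, and 11.51, 11.44 and 11.54 in C57BL/6J females. All 12 values lay within a narrow band, with KK females below C57BL/6J females. The strain difference was -0.23 over both sexes (SE 0.06, adjusted p 0.0163) and -0.30 in females (SE 0.08, adjusted p 0.0441). The call in females was lost when any 1 of 8 of the 12 mice was left out, at adjusted p 0.0551 to 0.137, and it was -0.27 without KK female 3 (adjusted p 0.134). In males it was -0.17 (adjusted p 0.299), and the sex difference was -0.08 in KK (adjusted p 0.634) and -0.21 in C57BL/6J (adjusted p 0.443).

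**Figure D2:**
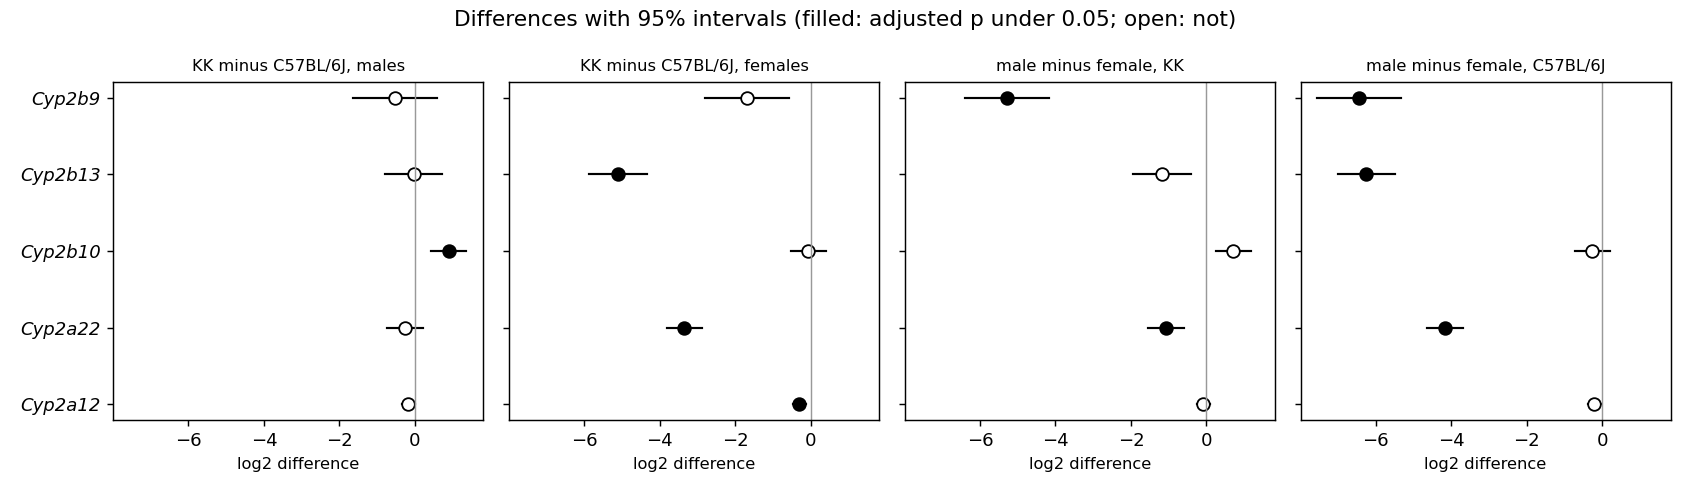
Log2 differences with 95% intervals for the 5 measured genes, by strain (KK minus C57BL/6J) in males and in females and by sex (male minus female) in KK and in C57BL/6J; filled points passed an adjusted p of 0.05 and open points did not. Cyp2b9, Cyp2b13 and Cyp2a22 hold the large differences, and the points of Cyp2b10 and Cyp2a12 lie between -1 and 1 in every panel.

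KK female 3 stood below the other KK females in Cyp2b9 and Cyp2b13. In Cyp2a22 it was also the lowest, at 6.41, but KK female 2 was near it at 6.50, while KK female 1 read 7.34. The Cyp2b9 value of KK female 3 was 2.53 below the highest KK female, the 7th widest range of all probe sets in that group. Cyp2b13 spanned 1.88, the 10th widest. A range above 1 was found in 0.495% of probe sets. By Xist (10.39) and the Y-linked genes (3.85 to 4.52) this mouse was female.

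A list of other female-biased liver genes followed the same order. Of its 16 measured members, KK female 3 was the lowest KK female in 15, and of 17 male-biased genes it was the highest in 14. Over all probe sets it was the lowest in 28.2% and the highest in 28.5%. The median of the 16 genes, relative to the C57BL/6J female mean, was -1.18, -1.44 and -2.77 in KK females 1, 2 and 3, and -3.39, -3.22 and -3.26 in the KK males. The cause was not tested.

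**Figure D3:**
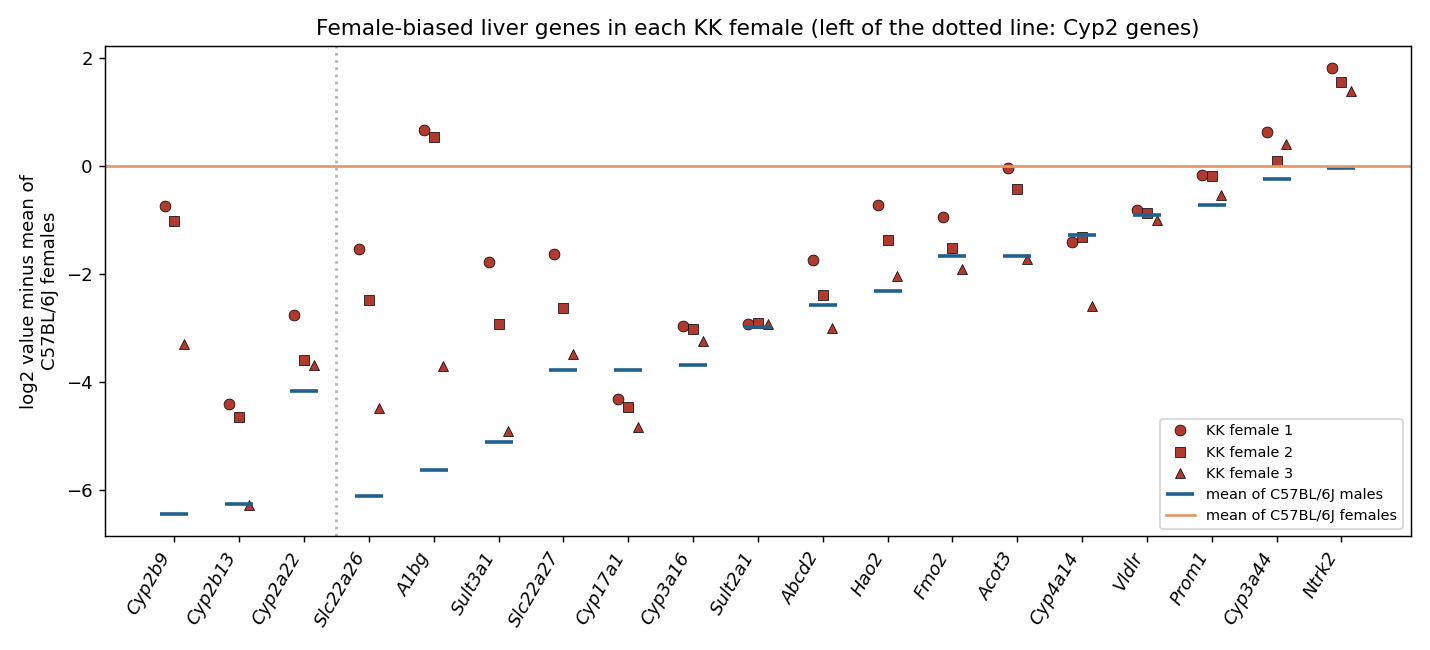
Log2 value of each KK female minus the mean of C57BL/6J females, for Cyp2b9, Cyp2b13 and Cyp2a22 (left of the dotted line) and for the 16 other female-biased genes; blue dashes are the mean of C57BL/6J males and the line at 0 is the mean of C57BL/6J females. KK female 3, the triangle, is the lowest of the 3 for 15 of the 16 genes.

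Over the same 16 female-biased genes, 11 fell and 1 rose in KK females against C57BL/6J females (median -1.62), and 3 fell and 1 rose in males (median -0.07). Over all probe sets these medians were -0.01 and 0.02, and 6.5% were called in females and 5.15% in males. Of the 17 male-biased genes, 11 rose in KK females against C57BL/6J females (median 1.63) and 3 rose and 1 fell in males (median 0.18). The calls with the smallest adjusted p in KK females were Cyp17a1 (-4.53), Ntrk2 (1.58), Vldlr (-0.90) and Abcd2 (-2.37) of the female-biased genes. Of the male-biased genes they were Cyp4a12b (7.05) and Cyp4a12a (7.19), close copies that make fatty acid hydroxylases, Serpina4-ps1 (3.52) and C6 (2.54). In KK males they were Cyp4a14 (-6.11), Abcd2 (-1.83), Ntrk2 (0.69) and Cyp17a1 (-1.58), and Moxd1 (3.35), Serpina4-ps1 (2.45), Gstp1 (-0.66) and Cyp4a12a (0.88). The median difference between males and females over the female-biased genes was -0.97 in KK and -2.44 in C57BL/6J. Over the male-biased genes it was 1.10 in KK and 2.01 in C57BL/6J, against 0.03 in KK and 0.01 in C57BL/6J over all probe sets. Not every listed gene was called by sex here. Of the 16 female-biased genes, 12 were lower in C57BL/6J males and 7 in KK males. Of the 17 male-biased genes, 15 were higher in C57BL/6J males and 8 in KK males. The share of all probe sets called by sex was 1.03% in C57BL/6J and 2.17% in KK. In C57BL/6J the sex difference was -0.04 for Ntrk2 (adjusted p 0.999), -1.28 for Cyp4a14 (adjusted p 0.222) and 0.43 for Moxd1 (adjusted p 0.88).

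Cyp2a22 was most like Slc22a27, a female-biased transporter gene, with a root mean square difference of 0.41 over the 12 centred arrays and 18085 candidate genes. Next were Sult3a1, a sulfotransferase (0.69), and Cyp17a1, a steroid hydroxylase (0.72). Cyp2b9 was most like A1bg (0.71), Slc22a26 (0.81) and Xist (0.88). Cyp2b13 was most like Sult3a1 (0.74), Cyp2a22 (0.90) and Slc22a26 (0.96). These are descriptions of the same arrays.

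The cluster holds 15 protein-coding genes from Cyp2b10 to Cyp2a12 over 1139 kb. Of the 8 that are not members, 7 had a probe set, and limma called 0 of them in each of the 6 comparisons, with 0 at an unadjusted p under 0.05. All 7 lay at low values. Nlrp9c, Nlrp4a, Nlrp9a and Vmn1r185 read 3.39 to 3.89, within or below the range of absent transcripts, where a difference could not be seen. Higher were Cyp2g1 (4.36 to 5.04), Cyp2b23 (4.84 to 5.28) and Cyp2b19 (4.80 to 5.38). Shares of all probe sets called ran from 0.141% to 11.7% over the comparisons, so 0 calls among 7 genes do not set them apart. The nearby Cyp2f2, a periportal P450, rose by 0.23 in KK females (adjusted p 0.025), the single call among the 6 other Cyp2 genes of the region.

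**Figure D4:**
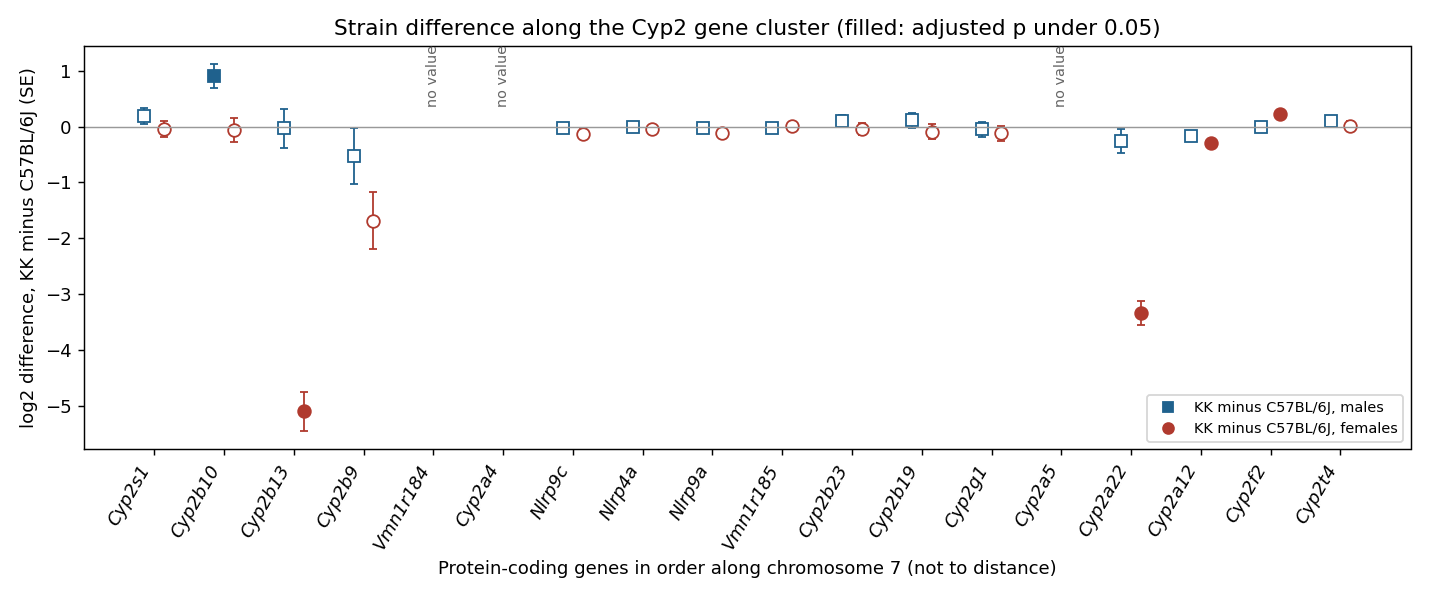
Strain difference (KK minus C57BL/6J, log2, with SE) of the protein-coding genes in their order along the chromosome 7 cluster, squares for males and circles for females, filled where the adjusted p was under 0.05; distances are not drawn to scale. Cyp2b13 at -5.11 and Cyp2a22 at -3.34 in females lie furthest below 0.

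Of 26 measured genes from a list of regulators and growth hormone signalling genes, 2 rose and 2 fell in KK females (6.5% of all probe sets called). In KK males 2 rose and 3 fell (5.15% called). Bcl6, a repressor of female-biased genes in male mouse liver, read 7.27, 7.85 and 6.92 in KK males, 9.03, 8.95 and 9.39 in C57BL/6J males, 7.27, 7.32 and 7.56 in KK females, and 6.76, 6.30 and 6.24 in C57BL/6J females. The C57BL/6J males were above all other mice, and KK males and KK females overlapped.

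Males exceeded females in Bcl6 by 2.69 in C57BL/6J (adjusted p 3.2e-05), and the KK difference was -0.04 (adjusted p 0.942). The strain difference was -1.78 in males (adjusted p 0.00034) and 0.95 in females (adjusted p 0.0191), and their difference was -2.73 (adjusted p 0.0026). Ahr, the aryl hydrocarbon receptor, fell by 0.49 in KK males and fell by 0.57 in KK females. In KK females Trim24, a transcriptional co-regulator, fell by 0.90, and Cebpb, a C/EBP factor, rose by 0.50. In KK males Cish, a target of STAT5, rose by 1.2, and Onecut1, a hepatocyte factor also called HNF6, rose by 1.58. Stat5b, which carries the growth hormone signal, fell by 0.41 in KK males. In males Trim24 was 0.03 and Cebpb 0.24, and neither was called. In females Cish was -0.59, Onecut1 0.53 and Stat5b -0.21, and none of these was called.

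Between the sexes Esr1, the estrogen receptor alpha gene, fell by 1.33 in males of KK (adjusted p 0.000111) and fell by 1.33 in males of C57BL/6J (adjusted p 7.5e-05). In KK males against KK females Stat5b fell by 0.51, Ppargc1a, a coactivator of fasting genes, fell by 0.70, and Cish rose (adjusted p 0.0177). In C57BL/6J males against C57BL/6J females Trim24 fell by 1.22 and Tox fell by 0.81. The interaction was called for Cish too, at 1.79 (adjusted p 0.0184).

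The CAR gene Nr1i3, named after its values were seen, was -0.25 in KK over both sexes (adjusted p 0.0369), -0.15 in males (adjusted p 0.524) and -0.36 in females (adjusted p 0.0544). Of 22 other measured targets of CAR and PXR, 3 rose and 3 fell in KK males, and 4 rose and 6 fell in KK females. Their median difference was -0.03 in males and -0.10 in females. The share called over all probe sets was 5.15% in males and 6.5% in females. The transporter gene Slco1a4 fell by 2.91 in KK males and fell by 2.32 in KK females. The carboxylesterase gene Ces2a fell by 1.84 in KK males and fell by 2.04 in KK females. Cyp2c37, another P450 gene, fell by 1.11 in KK males and fell by 1.29 in KK females. Gstm3, a glutathione transferase gene, rose by 0.84 in KK males and rose by 0.69 in KK females, and Aldh1a7, an aldehyde dehydrogenase gene, rose by 0.36 in KK males and rose by 0.58 in KK females.

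Some markers of other cells moved with sex, mostly in KK. Of the 6 Kupffer cell markers measured, of 7 listed, 5 fell in KK males against KK females, where the log2 of their summed levels was 10.38, 10.30 and 10.83 in KK males and 12.25, 11.67 and 11.45 in KK females. In C57BL/6J it was 10.95, 11.52 and 10.97 in males and 11.68, 11.52 and 11.63 in females, and 0 of the 6 markers were called by sex. Alas2, the 1 measured of 4 listed erythroid genes, rose by 0.74 in KK males and rose by 1.57 in C57BL/6J males against females. Of 7 sinusoidal endothelial markers, only Stab2 was called, and it fell by 0.40 in KK males against KK females. In C57BL/6J 0 of the 7 were called. Stellate cell, cholangiocyte, lymphocyte and adipocyte markers had 0 calls by sex in either strain. By sex, 2.17% of all probe sets were called in KK and 1.03% in C57BL/6J. The part of other cells in the sex differences of Cyp2b9, Cyp2b13 and Cyp2a22 was not tested. The log2 of the summed hepatocyte markers was 16.16 to 16.26 over the 12 mice, but single markers moved. Of these 8 markers, Apoa1 rose by 0.32 in KK males against KK females (adjusted p 0.0305). In KK females against C57BL/6J females Apoa1 fell by 0.47 (adjusted p 0.00126) and Tat rose by 0.60 (adjusted p 0.0313), and the other 6 did not pass. By strain, 5.15% of all probe sets were called in males and 6.5% in females. Of the 6 Kupffer cell markers, 2 fell in KK males (median of the 6, -0.71) and 1 fell in KK females (median -0.04). Alas2 rose by 0.77 in KK males and rose by 1.60 in KK females. Of the 7 sinusoidal markers only Lyve1 was called within a sex, and it fell by 0.75 in KK males and 0.73 in KK females. The medians of the 7 were -0.12 in males and -0.05 in females. Of 7 stellate cell markers only Col3a1 was called within a sex, and it fell by 0.37 in KK females (median of the 7, -0.07). Their part in the strain differences of Cyp2b13, Cyp2a22 and Cyp2b10 was not tested either.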

How the data were processed

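Liver RNA of 12 mice was measured on 12 arrays. The deposited values are log2 expression values made by the authors with RMA and the affy package, per the labels, with versions not given; the depth of an array is not a read count, and its number limits the precision. RMA adjusts background and equalises arrays, so small differences between low values shrink, and detection calls were not available. All 12 arrays were fitted in R 4.3.3 with limma 3.58.1 (lmFit, eBayes) with 1 mean per strain and sex, without a filter, and the p-values were adjusted over 21212 probe sets. The fit was tested on simulated data. Of the probe sets, 18786 carried a single gene symbol, 6 carried several and 2420 carried none. Of a list, up to 4 called genes per comparison were named in order of adjusted p, and some genes named in 1 sex are given in the other too. Others are left to counts. Also named are the 3 genes most like each member with an SD of at least 1. The members and lists were chosen with earlier results of these data known. RefSeq sequences and positions are of GRCm38.p6. Alternatives were other normalizations, array weights, filters, a replicate block, the interquartile range as a covariate, a 1.5-fold minimum, a fit of only the pair of groups at hand, and leaving out single arrays.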

Additional observations from a re-analysis of the deposited data

Results flagged for a closer look

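The strain difference of Cyp2a22 differed between the sexes, at 3.09 on the log2 scale for males minus females (limma, adjusted p 0.000976), with -0.25 in males and -3.34 in females. For Cyp2b13 the same value was 5.08 (limma, adjusted p 0.000912), with -0.03 in males and -5.11 in females. All 6 males read 3.64 to 3.82 for Cyp2b13, within or below the range of absent transcripts, so a male strain difference was not measurable and 5.08 rests on the females. In both genes the 3 C57BL/6J females lay above every other mouse.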

How the results depend on the processing

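Of 614 values of the 5 genes under alternatives, 577 kept their direction and their side of the threshold, 20 lost the call, 14 gained it and 3 turned. Cyp2b10 in females, -0.06, ran from -0.18 (KK female 3 left out) to 0.087 (KK female 2) and was 0.038 without C57BL/6J female 1. Cyp2b13 in males, -0.03, ran from -0.075 (C57BL/6J male 3 left out) to 0.015 (C57BL/6J male 2). All values of the C57BL/6J sex difference and of the difference of strain differences kept their side. With a replicate block, Cyp2b9 (-1.11, adjusted p 0.0204) and Cyp2b10 (adjusted p 0.0373) were called over both sexes and Cyp2b9 in females (adjusted p 0.0223). The labels do not state that replicate numbers pair the mice, and the main fit had no block. Same-number correlations ran from -0.36 to 0.48, and 10 of 18 were over 0.1. In 20 of 36 comparisons of an array with another group it correlated best with its own number, where 12 would follow from an even draw. Whether arrays of the same number shared an effect was not tested. The block gave 1 of the 5 genes higher over both sexes and gave 3113 calls there, against 2488 without it. Array weights also gave 1 higher over both sexes and 1 in the KK sex difference. Array weights gave 2423 calls in males, 2058 in the KK sex difference, 363 in the C57BL/6J one and 77 in the interaction, against 1092, 460, 219 and 30. The interquartile range as a covariate gave 2329 in females, 1673 in males and 392 in the C57BL/6J sex difference. The 1.5-fold minimum gave 501 over both sexes, 558 in females, 467 in males and 259 in the KK sex difference. With only the groups compared, the KK sex difference had 190 calls and 1 gene lower, and males had 0 genes higher. The filter above the median left 1 gene in the interaction, because Cyp2b13 lies below it. Leaving out each mouse gave 905 to 1412 calls in females, 662 to 1163 in males, 160 to 512 for sex in KK, 142 to 225 in C57BL/6J and 19 to 35 in the interaction. It gave 0 to 1 gene higher over both sexes and in males, and 1 to 3 lower for sex in KK. Cyp2b9 in females was called with array weights (-2.29, adjusted p 0.0120), above the median (0.0389) and without KK female 1 (-2.16, 0.0361). The causes were not tested.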

Other observations

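Of 9 measured genes of P450 partners and heme synthesis, 2 rose in KK males and 1 in KK females, and none was called lower in either. Alas1, the first enzyme of heme synthesis, rose by 1.64 in KK males and 0.61 in KK females. Of 12 pericentral hepatocyte genes, 1 rose and 3 fell in KK males, and 3 fell in KK females. Of 8 measured periportal genes, 1 fell in KK males, and 4 rose and 1 fell in KK females. By strain, 5.15% of all probe sets were called in males and 6.5% in females.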
